A study of Homo sapiens with 4 samples.

Results

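The 43 genes described here encode parts of the kinetochore, the spindle assembly checkpoint, the chromosomal passenger complex and the spindle pole. The rule lists them by name and sets no threshold on a measured value, and all 43 were found by gene symbol among the 38558 genes of the deposited table. RNA was sequenced from SKOV3 and ES2, which are established human ovarian cancer cell lines. It came from cells after 48 h with the compound YY-15 (the labels give no name but this code) or without any drug. No time is given for the controls. The 4 groups were SKOV3 YY-15, SKOV3 control, ES2 YY-15 and ES2 control, with 1 library each, and no genetic change was labelled in any of them. The dose of 4 µM stands only in the column headings of the table. With 1 library per group there was no replicate check, and no difference below has a test or a p-value.

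The kinetochore is the protein assembly that joins each chromosome to the microtubules of the mitotic spindle. It is built on centromeric nucleosomes that hold the histone variant CENP-A, through an inner layer called the constitutive centromere-associated network, and its outer layer of KNL1, MIS12 and NDC80 complexes binds the microtubules. The checkpoint delays anaphase while kinetochores lack microtubules, and many of these genes are transcribed mainly in G2 and mitosis, and their RNA is known to follow the share of dividing cells. In RNA from whole cultures, fewer cells in those phases and less RNA per cell cannot be told apart.

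The count totals of the 4 libraries lay between 62522202 in SKOV3 YY-15 and 67431058 in SKOV3 control, and 11781 to 12850 genes reached an FPKM of 1 in a library. FPKM counts fragments per kilobase of a transcript, relative to the size of the library. Of 9 markers of epithelial and ovarian carcinoma cells, 6 in SKOV3 YY-15, 5 in SKOV3 control and 2 in each ES2 library reached an FPKM of 1, and their FPKM summed to 274 in SKOV3 YY-15, 411 in SKOV3 control, 116 in ES2 YY-15 and 126 in ES2 control. PAX8, a transcription factor of Müllerian epithelium, had 43.7 FPKM in SKOV3 YY-15 and 37.4 FPKM in SKOV3 control, against 0.0305 FPKM in ES2 YY-15 and 0.119 FPKM in ES2 control. EPCAM, CDH1 and MUC16 were at 0 in both ES2 libraries, but in SKOV3 only EPCAM with YY-15 (1.15 FPKM) reached 1. KRT18 was alike in the lines, with 97.7 FPKM in SKOV3 YY-15, 104 in SKOV3 control, 102 in ES2 YY-15 and 112 in ES2 control. The other keratins of the list were not. KRT8 had 116 FPKM in SKOV3 YY-15 and 247 in SKOV3 control, against 12.7 in both ES2 libraries. KRT19 had 12.5 FPKM in SKOV3 YY-15 and 20.5 in SKOV3 control, against 0.0363 in ES2 YY-15 and 0 in ES2 control. Most of the gap between the SKOV3 sums lay in KRT8. All 4 mesenchymal markers reached an FPKM of 1 in every library. Of 4 fibroblast markers, 3 in each SKOV3 library and 1 in each ES2 library did. Of the leukocyte markers, PTPRC was at 0.00591 FPKM or less in all 4 libraries, and CD68 had 12.3 FPKM in SKOV3 YY-15, 8.11 FPKM in SKOV3 control, 39.9 FPKM in ES2 YY-15 and 29.1 FPKM in ES2 control. Of the endothelial markers, PECAM1 and VWF were under 1 FPKM in every library, and CDH5 had 16.3 FPKM in ES2 YY-15 and 19.5 FPKM in ES2 control but was under 1 FPKM in both SKOV3 libraries.

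All 43 genes reached an FPKM of 1 in all 4 libraries, so none was lost to the filter on low values. The gene with the fewest fragments still had an estimated count of 651 in SKOV3 YY-15, 848 in SKOV3 control, 829 in ES2 YY-15 and 768 in ES2 control. Added over the 43 genes, FPKM came to 512 in SKOV3 YY-15 and 783 in SKOV3 control, so 65.4% of the control sum was left. In ES2 the sums were 786 FPKM with YY-15 and 841 FPKM in the control, leaving 93.4%. TPX2 and CENPB were the most abundant members per length in every library. CENPP, CENPC and NSL1 lay at the low end, between 1.08 FPKM for CENPP in SKOV3 YY-15 and 2.33 FPKM for NSL1 in ES2 YY-15.

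**Figure D1:**
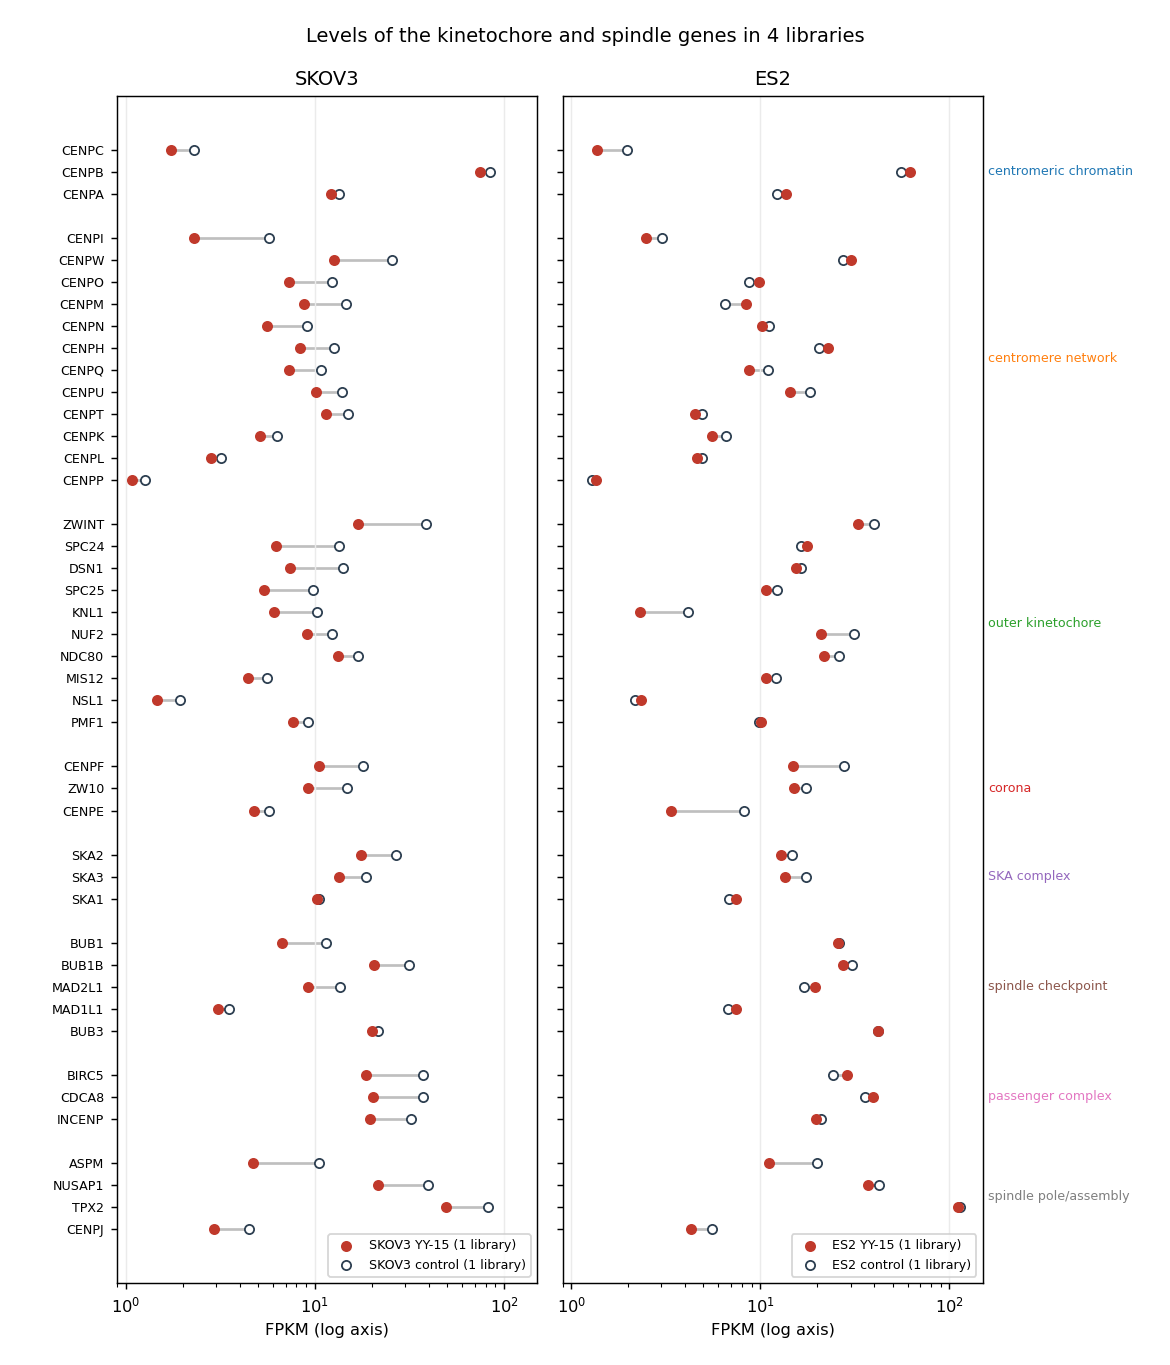
FPKM of each of the 43 genes (log axis) in SKOV3 on the left and ES2 on the right, filled points for the YY-15 library and open points for the control library, 1 library each, joined by a line and grouped by role. In SKOV3 every filled point lies left of its open point (for SKA1 not after rescaling to TPM), while in ES2 the filled point lies to the left for 27 genes and to the right for 16.

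By FPKM every one of the 43 genes was lower in SKOV3 YY-15 than in SKOV3 control, although SKA1 lay above its control after rescaling to TPM. Differences are given as log2((YY-15 FPKM + 1)/(control FPKM + 1)), called the log2 ratio, and a gene was included where either library reached an FPKM of 1. Among all 13294 such genes 47.3% lay below 0. The 43 log2 ratios ran from -1.15 for ZWINT to -0.04 for SKA1, with a median of -0.55, against a median of 0.02 over all genes. At least 1.5-fold lower were 20 of the 43, against 5.69% of all genes, and at least 2-fold lower were 3, ZWINT, CENPI and ASPM, against 1.31% of all genes. None was at least 1.5-fold higher, a size that 6.89% of all genes reached. Exact Clopper-Pearson 95% intervals of the log2 ratio of count shares, given in brackets, use no pseudocount, so the log2 ratio of a gene at low or moderate FPKM, also a long one with many fragments such as ASPM, can lie nearer to 0 than its own interval. They hold counting error alone and say nothing of how cultures vary. They lay below 0 for 42 genes and held 0 for 1, SKA1. The share of all genes whose interval lies below 0 was not counted, so there is no background for this count. With a pseudocount of 5 in place of 1, 10 genes reached the 1.5-fold size and 0 the 2-fold size, and with a pseudocount of 0.1, 6 reached the 2-fold size. Nearest to the 1.5-fold size were BUB1B, just inside it at -0.59, and SKA2, just outside it at -0.58.

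**Figure D2:**
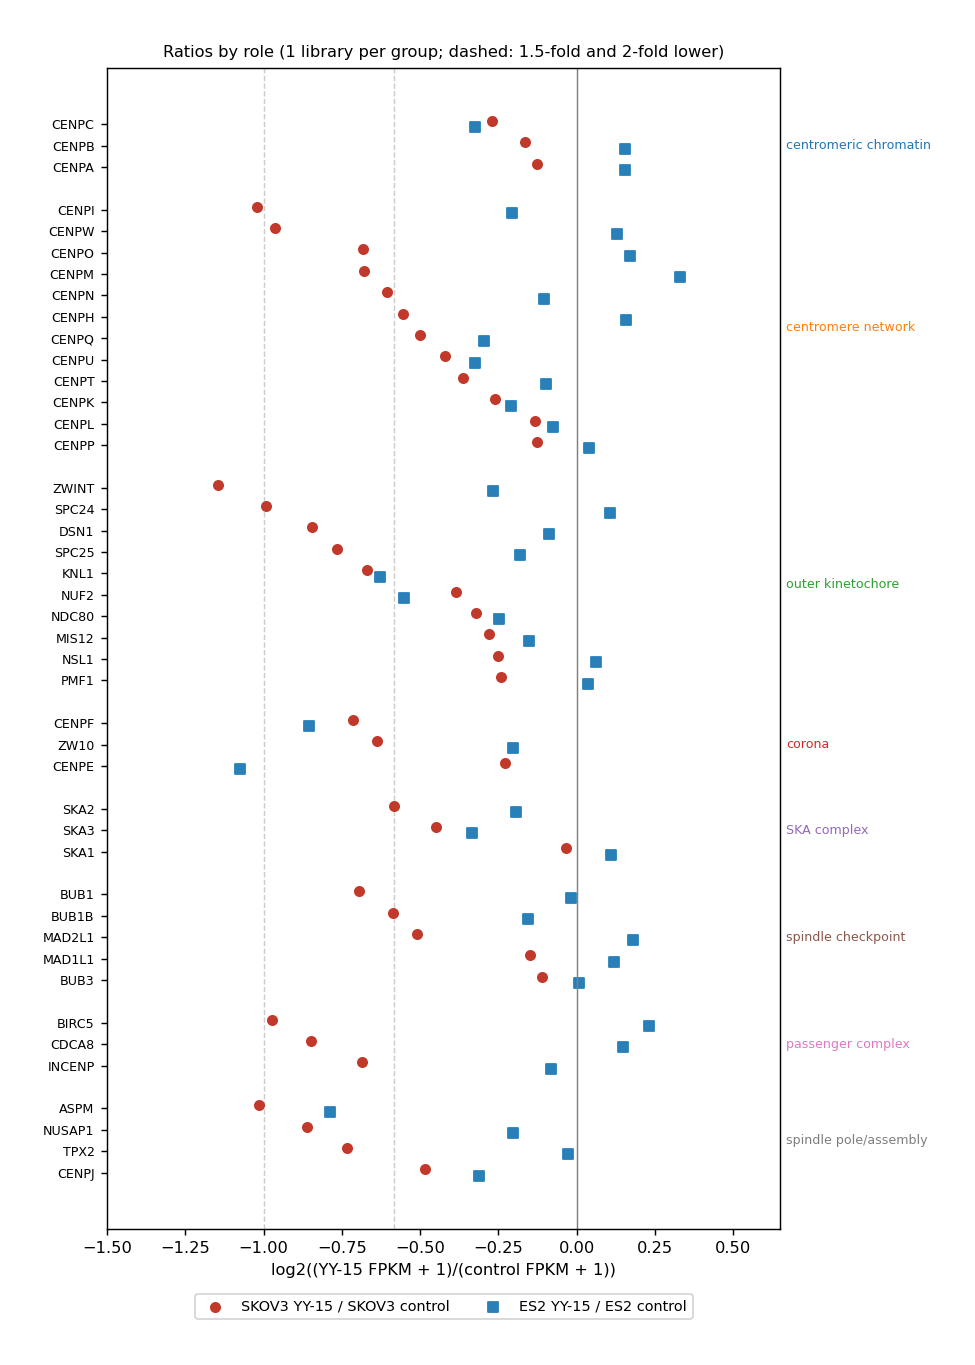
Log2 ratio of each gene in SKOV3 (circles, YY-15 over control) and in ES2 (squares, YY-15 over control), grouped by role, with a solid line at 0 and dashed lines at 1.5-fold and 2-fold lower. All 43 circles lie left of 0 (SKA1 does not after rescaling to TPM), with ZWINT, CENPI and ASPM beyond the 2-fold line, and of the squares only that of CENPE lies beyond it.

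Centromeric chromatin, where CENP-A replaces histone H3, CENP-B binds a DNA motif of alpha satellite repeats and CENP-C links the nucleosome to the layers above, showed the smallest difference of any role group in SKOV3. None of its 3 genes was 1.5-fold lower, and their median log2 ratio was -0.16. CENPA had 12.2 FPKM in SKOV3 YY-15 and 13.4 FPKM in SKOV3 control, and 13.7 FPKM in ES2 YY-15 and 12.2 FPKM in ES2 control. Its values are uncertain because the gene overlaps SLC35F6 on the same strand. CENPB had 75.1 FPKM in SKOV3 YY-15 and 84.3 FPKM in SKOV3 control, with 62.1 FPKM in ES2 YY-15 and 55.6 FPKM in ES2 control. For both genes the treated library was thus slightly lower in SKOV3 and slightly higher in ES2. CENPC was the lowest of the group in both lines, with log2 ratios of -0.27 in SKOV3 and -0.33 in ES2.

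In the constitutive centromere-associated network, all 12 genes were lower in SKOV3 YY-15 and 5 of them at least 1.5-fold, with a median of -0.53. CENPI (ENSG00000102384, chrX:101098188-101166126, GRCh38), a subunit of the CENP-H/I/K/M complex, had 2.31 FPKM in SKOV3 YY-15 and 5.71 FPKM in SKOV3 control, and 2.48 FPKM in ES2 YY-15 and 3.01 FPKM in ES2 control. The SKOV3 control library stood above the other 3, and the SKOV3 log2 ratio was -1.02 [-1.40 to -1.20]. The other subunits of that complex had smaller SKOV3 ratios, -0.68 for CENPM, -0.55 for CENPH and -0.26 for CENPK. CENPW, a histone-fold protein that pairs with CENP-T, had 12.6 FPKM in SKOV3 YY-15 and 25.5 FPKM in SKOV3 control, against 30.2 FPKM in ES2 YY-15 and 27.5 FPKM in ES2 control. Only SKOV3 YY-15 was well below the other libraries, with a log2 ratio of -0.96 [-1.14 to -0.88] in SKOV3 and 0.13 [0.04 to 0.23] in ES2. Its partner CENPT had a log2 ratio of -0.36 in SKOV3 and -0.10 in ES2. CENPO and CENPN were also at least 1.5-fold lower in SKOV3, at -0.68 and -0.61, although the CENPO subcomplex was uneven, with CENPQ at -0.50, CENPU at -0.42 and CENPP at -0.13. CENPP was the highest of the group in SKOV3, and CENPL, the partner of CENPN, had the next ratio at -0.13. CENPO, CENPN, CENPT, CENPU, CENPL and CENPP overlap another measured gene on the opposite strand. The library protocol kept strand, but the sources used here do not say whether the counting did.

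The outer kinetochore held both the lowest log2 ratio in SKOV3 and genes with small ratios, and 5 of its 10 genes were at least 1.5-fold lower (median -0.53). ZWINT (ENSG00000122952, chr10:56357227-56361266, GRCh38), which binds KNL1 and helps to recruit the ZW10 complex, had 16.9 FPKM in SKOV3 YY-15 and 38.6 FPKM in SKOV3 control, and 32.8 FPKM in ES2 YY-15 and 39.7 FPKM in ES2 control. The controls of both lines were alike and SKOV3 YY-15 stood lowest, with log2 ratios of -1.15 [-1.25 to -1.12] in SKOV3 and -0.27 [-0.33 to -0.22] in ES2. The subunits of the NDC80 complex, the main microtubule coupler, did not have equal ratios. SPC24, in the dimer that faces the centromere, had 6.23 FPKM in SKOV3 YY-15 and 13.4 FPKM in SKOV3 control, a log2 ratio of -0.99. SPC25, its dimer partner, had 5.35 FPKM in SKOV3 YY-15 and 9.81 FPKM in SKOV3 control, a log2 ratio of -0.77. The microtubule-binding dimer was nearer to its control, with log2 ratios of -0.39 for NUF2 and -0.32 for NDC80. The MIS12 complex, which bridges the inner and outer layers, was uneven too, with DSN1 at -0.85 (7.42 FPKM in SKOV3 YY-15, 14.1 FPKM in SKOV3 control), MIS12 at -0.28, NSL1 at -0.25 and PMF1 at -0.24. PMF1 is uncertain because it shares its locus with the read-through gene PMF1-BGLAP. KNL1, the scaffold on which BUB1 and BUBR1 gather, had 6.07 FPKM in SKOV3 YY-15 and 10.3 FPKM in SKOV3 control, a log2 ratio of -0.67.

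The corona is the fibrous outermost layer of a kinetochore without microtubules. CENPF, a large coiled-coil protein that binds dynein regulators, had 10.6 FPKM in SKOV3 YY-15 and 18.0 FPKM in SKOV3 control, a log2 ratio of -0.72 [-0.80 to -0.72]. ZW10, part of the complex that brings dynein and the MAD proteins, had 9.16 FPKM in SKOV3 YY-15 and 14.8 FPKM in SKOV3 control, a log2 ratio of -0.64 [-0.77 to -0.60]. CENPE, the kinesin that carries chromosomes towards the spindle equator, was nearer to its control in SKOV3, at 4.76 FPKM with YY-15 and 5.75 FPKM in the control, a log2 ratio of -0.23 [-0.33 to -0.20]. In the SKA complex, which stabilises the hold of NDC80 on microtubules, no gene was 1.5-fold lower in SKOV3. SKA2 stood at -0.58, SKA3 at -0.45 and SKA1 at -0.04 [-0.12 to 0.06], the only interval in SKOV3 that held 0.

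All 5 spindle checkpoint genes were lower in SKOV3 YY-15, BUB1 and BUB1B at least 1.5-fold (median -0.51). BUB1 (ENSG00000169679, chr2:110637528-110678063, GRCh38), the kinase that marks centromeric histone H2A, had 6.72 FPKM in SKOV3 YY-15 and 11.5 FPKM in SKOV3 control, and 25.8 FPKM in ES2 YY-15 and 26.1 FPKM in ES2 control. Its SKOV3 log2 ratio was -0.69 [-0.83 to -0.70], and both ES2 libraries lay above both SKOV3 libraries. BUB1B, which encodes the checkpoint protein BUBR1, had 20.6 FPKM in SKOV3 YY-15 and 31.4 FPKM in SKOV3 control, at the edge of the 1.5-fold size. MAD2L1, which encodes MAD2, the inhibitor of CDC20, had 9.19 FPKM in SKOV3 YY-15 and 13.5 FPKM in SKOV3 control, a log2 ratio of -0.51. MAD1L1, which encodes the kinetochore receptor of MAD2, and BUB3, the partner of BUB1 and BUBR1, had log2 ratios of -0.15 and -0.11.

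All 3 member genes of the chromosomal passenger complex were at least 1.5-fold lower in SKOV3 YY-15, with a median of -0.85. The complex carries Aurora B kinase, whose gene AURKB stands in a further list and was not 1.5-fold lower. AURKB, named after its values were seen, had log2 ratios of -0.42 in SKOV3 and 0.15 in ES2. BIRC5 (ENSG00000089685, chr17:78214186-78225636, GRCh38), which encodes survivin, had 18.5 FPKM in SKOV3 YY-15 and 37.3 FPKM in SKOV3 control, against 28.7 FPKM in ES2 YY-15 and 24.3 FPKM in ES2 control. YY-15 was the lower library in SKOV3 and the higher one in ES2, with log2 ratios of -0.97 [-1.05 to -0.95] and 0.23 [0.19 to 0.29]. CDCA8, which encodes borealin, followed with 20.3 FPKM in SKOV3 YY-15 and 37.3 FPKM in SKOV3 control, a log2 ratio of -0.85 [-0.94 to -0.81]. INCENP, the scaffold of the complex, had 19.6 FPKM in SKOV3 YY-15 and 32.1 FPKM in SKOV3 control, a log2 ratio of -0.69 [-0.76 to -0.66].

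At the spindle pole and in spindle assembly, 3 of 4 genes were at least 1.5-fold lower in SKOV3 (median -0.80). ASPM (ENSG00000066279, chr1:197084121-197146694, GRCh38), which holds microtubule minus ends at the pole, had 4.72 FPKM in SKOV3 YY-15 and 10.6 FPKM in SKOV3 control, and 11.1 FPKM in ES2 YY-15 and 19.8 FPKM in ES2 control. The treated library was the lower one in both lines, with log2 ratios of -1.02 [-1.21 to -1.10] in SKOV3 and -0.79 [-0.88 to -0.80] in ES2. TPX2, the activator of Aurora A on spindle microtubules, had 49.2 FPKM in SKOV3 YY-15 and 82.5 FPKM in SKOV3 control, but 111 FPKM in ES2 YY-15 and 113 FPKM in ES2 control. NUSAP1, a microtubule bundling protein, had a log2 ratio of -0.86 in SKOV3 and is uncertain, since it overlaps OIP5-AS1 on the same strand. CENPJ, a centriole assembly factor, was the highest of the group at -0.49.

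In ES2 most of the same genes stood near their control, as did most genes of the table that were compared. Of the 43, 27 lay below 0, against 54.3% of the 12341 genes compared, and the median log2 ratio was -0.10, against -0.02 over all genes. Between -0.3 and 0.3 lay 33 of them, and the share of all genes in that range was not counted. Of all genes, 11.4% lay below CENPQ (-0.29) and 96.3% below CENPM (0.33). Most genes thus lay in such a range, and the 33 do not set the members apart. At least 1.5-fold lower were 4 genes, against 2.19% of all genes, and none was at least 1.5-fold higher, a size reached by 124 of all genes (1.0%). Counting intervals lay below 0 for 25 genes, above 0 for 13 and held 0 for 5, again without a count over all genes.

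The 4 were CENPE, CENPF, ASPM and KNL1. CENPE (ENSG00000138778, chr4:103105349-103198445, GRCh38) had 3.36 FPKM in ES2 YY-15 and 8.19 FPKM in ES2 control, a log2 ratio of -1.08 [-1.35 to -1.21] and the lowest of the 43 in ES2. CENPF had 14.9 FPKM in ES2 YY-15 and 27.8 FPKM in ES2 control, a log2 ratio of -0.86 [-0.93 to -0.87]. KNL1 had 2.32 FPKM in ES2 YY-15 and 4.13 FPKM in ES2 control, a log2 ratio of -0.63 [-0.92 to -0.74]. These 3 and ASPM have some of the longest transcripts among the members, and all are poor in G and C. Next came NUF2, with 21.0 FPKM in ES2 YY-15 and 31.2 FPKM in ES2 control, just short of the size at -0.55. At the other end, CENPM had 8.39 FPKM in ES2 YY-15 and 6.47 FPKM in ES2 control, the highest log2 ratio at 0.33 [0.24 to 0.52].

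By role, the ES2 medians were -0.86 in the corona, -0.26 in spindle pole and assembly, -0.19 in the SKA complex, -0.17 in the outer kinetochore and -0.09 in the centromere network. They were 0.01 in the checkpoint and 0.15 in both the passenger complex and centromeric chromatin. In the centromere network CENPU was lowest at -0.33 and CENPM highest. In the outer kinetochore SPC24 was highest at 0.11, and in the SKA complex SKA3 was lowest at -0.34 and SKA1 highest at 0.11. Among checkpoint genes BUB1B was lowest at -0.15 and MAD2L1 highest at 0.18. INCENP was the lowest passenger gene at -0.08, and TPX2 the highest spindle pole gene at -0.03.

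In ES2 the log2 ratio moved with the GC content of the transcript, in all genes as in the members, and in SKOV3 it did not. Transcript GC content and length were taken from the longest protein-coding transcript in GENCODE 29, and all 43 genes had both. Over the 43 genes Spearman's rho between log2 ratio and GC content was 0.607 in ES2 and -0.02 in SKOV3. Over all genes with these values it was 0.435 in ES2 (12010 genes) and 0.01 in SKOV3 (12924 genes). These are descriptions across genes of the same pair of libraries, and genes are not independent. Transcript length had a rho of -0.26 over the members and -0.25 over all genes in ES2. The members were richer in A and T than the rest, with a median GC content of 42.5% against 48.3% over the genes compared in ES2. The median ES2 log2 ratio of all genes ran from -0.20 in the tenth of genes with the lowest GC content to 0.08 in the tenth with the highest.

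**Figure D3:**
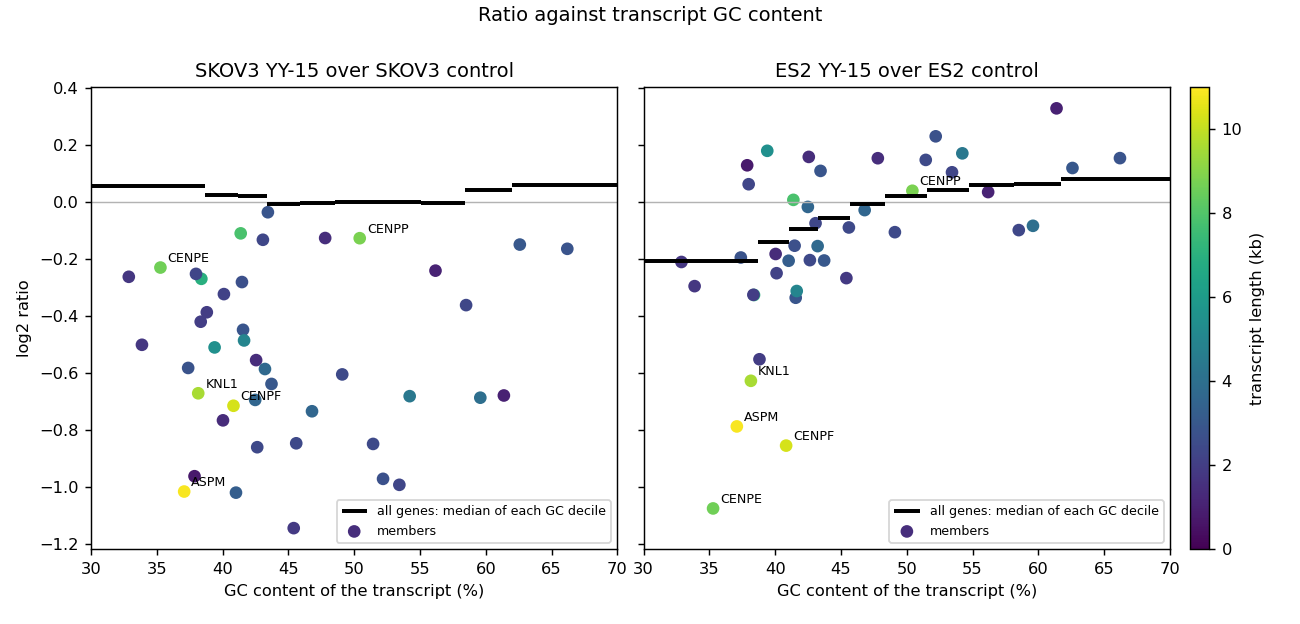
Log2 ratio (YY-15 over control) against transcript GC content in percent, SKOV3 on the left and ES2 on the right, with points for the 43 genes coloured by transcript length and bars for the median of all genes in each of 10 GC classes (the axis ends a little beyond the range of the members). In ES2 the bars climb with GC content, and CENPE, CENPF, ASPM, KNL1 and the shorter NUF2 (not labelled) lie far below the bar of their class. In SKOV3 the bars stay near 0 and the points lie below them at every GC content.

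Transcripts of at least 8000 nt with under 42% GC, limits that were chosen after the values were seen, had a median ES2 log2 ratio of -0.20 over 381 genes, 5.51% of which were at least 1.5-fold lower. The 4 members of that class, CENPE, CENPF, ASPM and KNL1, had a median of -0.82. The other 39 members had a median of -0.08 in ES2, and none of them was 1.5-fold lower. Among these, BUB3 fell just short of the length limit, at 7828 nt with 41.4% GC, and had an ES2 log2 ratio of 0.01. The split thus depends on the limits and on the reference transcript. In SKOV3 the 412 genes of the class had a median of 0.08, its 4 members -0.69 and the other 39 members -0.51. When a local regression on length and GC content over all genes was subtracted, 2 members remained at least 1.5-fold lower in ES2. These were CENPE at -0.82 and CENPF at -0.69, with ASPM at -0.55 and KNL1 at -0.42. NUF2, outside the class with a transcript of 1969 nt, then stood at -0.43, slightly below KNL1. The median of the members was then -0.07 in ES2 and -0.53 in SKOV3, where 18 were at least 1.5-fold lower. What makes the ES2 ratios follow GC content was not tested.

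Set side by side, 39 of the 43 genes had a lower log2 ratio in SKOV3 than in ES2, against 46.3% of the 11028 genes compared in both lines. The exceptions were CENPE, NUF2, CENPF and CENPC. Below 0 in both lines were 27 genes, and 16 were below 0 in SKOV3 and above 0 in ES2. Since all 43 lay below 0 in SKOV3, these counts repeat the split in ES2. The order of the genes was not shared, with a Spearman's rho of 0.07 between the ratios of the lines over the 43 genes. Nor was it shared over all 11028 genes, with a rho of -0.04. At least 1.5-fold lower in both lines were ASPM, CENPF and KNL1, and the share of all genes with this was not counted. The largest gap was that of BIRC5, with a SKOV3 minus ES2 difference of -1.20 in log2 ratio, followed by SPC24, CENPW and CENPM. CENPE had the largest gap in the other direction, a difference of 0.85. Differences between the lines could not be tested with 1 library per group.

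**Figure D4:**
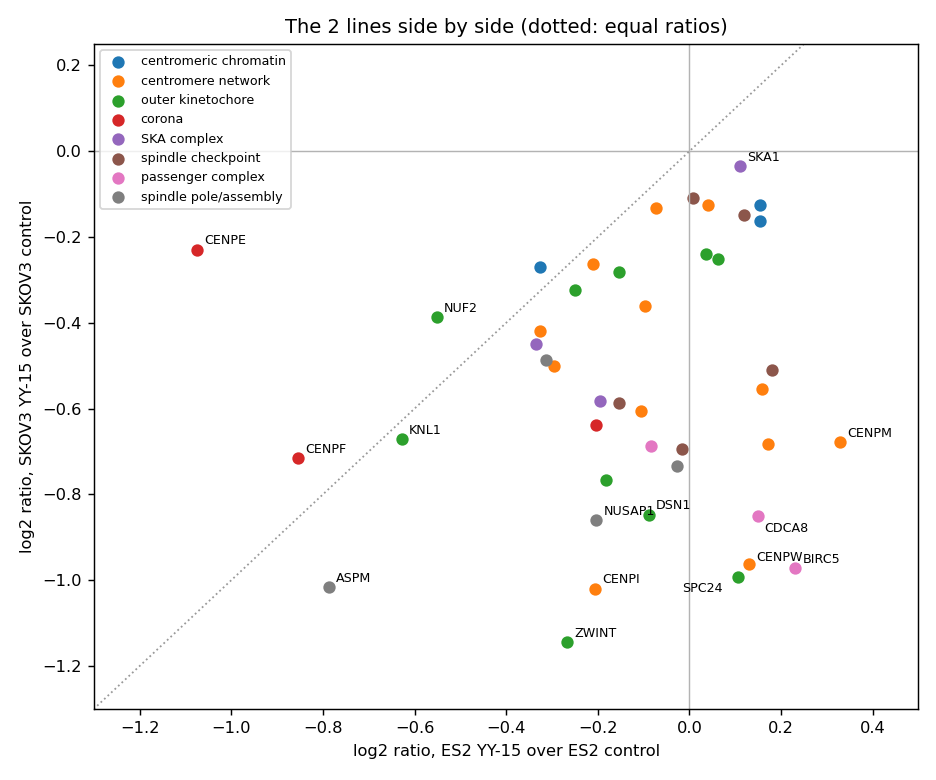
Log2 ratio in SKOV3 (vertical axis, YY-15 over control) against that in ES2 (horizontal axis, YY-15 over control), 1 point per gene coloured by role, with a dotted line where the ratios are equal. Most points lie below the dotted line, the 4 above it being CENPE, NUF2, CENPF and CENPC, and BIRC5, SPC24, CENPW, CDCA8 and CENPM lie at the lower right, below 0 in SKOV3 and above 0 in ES2.

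Untreated, the lines lay within 2-fold of each other for most of these genes. At least 2-fold higher in SKOV3 control than in ES2 control were 3 of the 43, against 16.2% of all 14024 genes compared. These were CENPT, with 15.1 FPKM in SKOV3 control and 4.90 FPKM in ES2 control, KNL1, with 10.3 FPKM in SKOV3 control and 4.13 FPKM in ES2 control, and CENPM, with 14.6 FPKM in SKOV3 control and 6.47 FPKM in ES2 control. At least 2-fold lower in SKOV3 control were 2, against 12.5% of all genes. NUF2 had 12.3 FPKM in SKOV3 control and 31.2 FPKM in ES2 control, and BUB1 had 11.5 FPKM in SKOV3 control and 26.1 FPKM in ES2 control. With a pseudocount of 5 each of these counts was 1. The median log2 ratio of SKOV3 control over ES2 control was -0.10 over the members and 0.07 over all genes.

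Transcription of G2 and mitosis genes is known to run through promoter elements read by the DREAM, MYB-MuvB and FOXM1 complexes. The cell cycle homology region (CHR) often lies near the start site and CCAAT boxes, bound by NF-Y, lie upstream of it. RefSeq promoters (GRCh38.p14, 250 bases before to 50 after a start) were held for 35 of the 43 genes, in 39 windows, and BIRC5, BUB3, CENPH, CENPJ, CENPL, CENPM, KNL1 and TPX2 had no entry. The 120 bases before the start are shown for the 5 genes whose stretch holds both the CHR letters and CCAAT, and for CENPE, which holds neither, for contrast. CENPI, whose SKOV3 log2 ratio lay between those of ZWINT and ASPM, has no CHR letters in its window and is not shown. Capitals mark the CHR letters, which are TTTGAA and the palindrome TTCGAA. They also mark the CCAAT letters. Read from the other strand, a CHR match appears as TTCAAA and a CCAAT match as ATTGG. In CDCA8 a match of each kind shares 1 base. Each reads 5′ to 3′ on the strand of the gene.
ZWINT: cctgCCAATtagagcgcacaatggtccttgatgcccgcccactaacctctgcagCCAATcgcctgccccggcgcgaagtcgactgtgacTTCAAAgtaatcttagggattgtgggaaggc
ASPM: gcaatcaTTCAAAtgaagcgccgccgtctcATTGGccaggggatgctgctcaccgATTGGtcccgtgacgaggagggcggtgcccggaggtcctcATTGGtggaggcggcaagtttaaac
CDCA8: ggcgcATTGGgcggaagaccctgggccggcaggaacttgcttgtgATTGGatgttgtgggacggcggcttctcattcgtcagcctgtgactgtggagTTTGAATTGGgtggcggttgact
INCENP: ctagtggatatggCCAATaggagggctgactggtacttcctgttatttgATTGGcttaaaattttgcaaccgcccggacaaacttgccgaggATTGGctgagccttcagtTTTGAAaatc
CENPC: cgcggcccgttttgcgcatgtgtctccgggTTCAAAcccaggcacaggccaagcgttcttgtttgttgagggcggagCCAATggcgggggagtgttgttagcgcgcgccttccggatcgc
CENPE: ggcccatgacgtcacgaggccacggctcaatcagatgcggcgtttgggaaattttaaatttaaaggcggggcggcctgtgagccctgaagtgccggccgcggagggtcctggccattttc
These are chr10:56361260-56361379 (minus strand) for ZWINT, chr1:197146670-197146789 (minus strand) for ASPM, chr1:37692396-37692515 (plus strand) for CDCA8, chr11:62123891-62124010 (plus strand) for INCENP, chr4:67545504-67545623 (minus strand) for CENPC and chr4:103198344-103198463 (minus strand) for CENPE.

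CHR letters stood in a promoter of 20 of the 35 genes (57.1%), against 15.0% of the 9632 genes past the SKOV3 filter that have a promoter entry. By window the shares were 53.8% of the members' 39 and 11.6% of the 13875 windows of those genes. In 18 of the 39 windows a CHR match began within 50 bases of the start, a distance chosen after the matches were seen, against 3.55% of those windows. CCAAT stood in a promoter of 22 genes (62.9%, against 43.2%), and E2F-like letters (TTTCCCGC, TTTGGCGC, TTTCGCGC or TTTGCCGC) in 4 (11.4%, against 6.90%). All were searched on both strands, and such a match is a stretch of letters, not a site shown to be bound. Of the 20 genes with CHR letters 13 were at least 1.5-fold lower in SKOV3, with a median log2 ratio of -0.66. Of the 15 without them 3 were, with a median of -0.28. BIRC5, CENPM, KNL1 and TPX2 were also at least 1.5-fold lower but had no entry, so they stand in neither number. Of all genes past the filter 5.69% reached this size, and their shares with and without the letters were not counted. Over all genes past the filter the SKOV3 median was -0.01 with the letters and 0.02 without them. In ES2 the medians of the members were -0.17 with CHR letters and -0.10 without. There were exceptions on either side, as SKA1 held the letters at a SKOV3 ratio of -0.04, while CENPI did not hold them at -1.02.

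**Figure D5:**
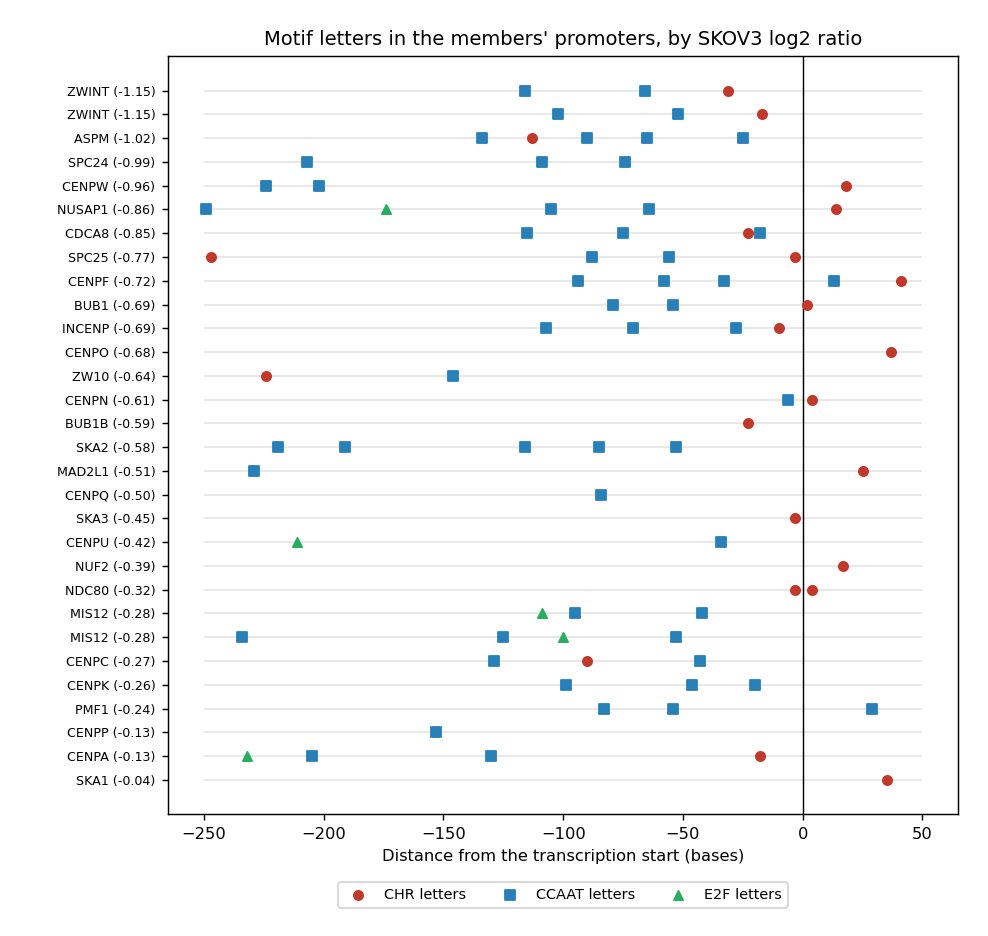
Distance in bases from the transcription start (vertical line at 0) of CHR letters (circles), CCAAT (squares) and E2F-like letters (triangles) in the 30 member windows that hold any of them, ordered from the lowest SKOV3 log2 ratio (in parentheses) at the top. CHR letters gather within 50 bases of the start, with those of ASPM, CENPC, ZW10 and a further match of SPC25 farther upstream, and CCAAT lies mostly upstream of them.

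Genes that work beside the 43 were read as 9 further lists. As background for each list, 47.3% of all genes compared in SKOV3 lay below 0 and 5.69% were at least 1.5-fold lower. The CENP-A loading factors were lower in SKOV3 YY-15 in 4 of 4 cases (median -0.66), with 2 at least 1.5-fold. HJURP, the chaperone that deposits CENP-A, had 12.3 FPKM in SKOV3 YY-15 and 22.8 FPKM in SKOV3 control, a log2 ratio of -0.84, although CENPA itself stood at -0.13. OIP5, which overlaps NUSAP1 on the opposite strand, had a log2 ratio of -0.78 in SKOV3. In ES2 they stood at 0.08 for HJURP and 0.17 for OIP5. The remaining subunits of the centromere network, CENPX, CENPS and ITGB3BP, had SKOV3 log2 ratios of -0.60, -0.52 and -0.52. CENPS is uncertain because a read-through with CORT is annotated at its locus. In ES2 these were 0.23 for CENPX, -0.27 for CENPS and -0.20 for ITGB3BP. Of 10 other checkpoint and shugoshin genes all 10 were lower in SKOV3 YY-15 (median -0.52) and 3 at least 1.5-fold. ZWILCH and KNTC1, which form a complex with ZW10, stood at -0.70 and -0.50, and SGO2, a protector of centromeric cohesin, at -0.55. Their ES2 ratios were -0.26 for ZWILCH, -0.47 for KNTC1 and -0.58 for SGO2, so that KNTC1 and SGO2 had nearly the same ratio in both lines.

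Among 15 genes of cohesin, separase and condensin 14 were lower in SKOV3 YY-15 (median -0.55) and 6 at least 1.5-fold, the lowest being the condensin I subunits NCAPD2 and NCAPH. NCAPD2 had 11.2 FPKM in SKOV3 YY-15 and 26.3 FPKM in SKOV3 control, a log2 ratio of -1.16, NCAPH stood at -1.06 and NCAPG, of the same complex, at -0.76. In ES2 these were 0.14 for NCAPD2, -0.06 for NCAPH and -0.43 for NCAPG. Of 19 centrosome and spindle factors 17 were lower in SKOV3 YY-15 (median -0.30) and 5 at least 1.5-fold. SPAG5 had 8.72 FPKM in SKOV3 YY-15 and 22.8 FPKM in SKOV3 control, a log2 ratio of -1.29. DLGAP5, a microtubule stabiliser near chromosomes, was also at -1.29, and FAM83D, which brings casein kinase 1 to the spindle, at -1.20. All 3 lay below ZWINT, the lowest of the 43 members. In ES2 they stood at 0.08 for SPAG5, -0.33 for DLGAP5 and 0.16 for FAM83D.

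Lists with smaller differences in SKOV3 were the anaphase-promoting complex, with 12 of 17 genes lower and a median of -0.13, and the augmin and gamma-tubulin ring complexes, with 10 of 15 lower, none 1.5-fold, and a median of -0.26. In the anaphase-promoting complex ANAPC15 stood at -0.94, ANAPC2 at -0.65 and ANAPC4 at -0.09, with ES2 ratios of 0.24 for ANAPC15, 0.10 for ANAPC2 and -0.48 for ANAPC4. In the augmin and gamma-tubulin list HAUS1 stood at -0.57, HAUS5 at -0.54 and TUBG1 at -0.36, with ES2 ratios of -0.11 for HAUS1, -0.27 for HAUS5 and 0.29 for TUBG1. The proliferation markers were lower as well. MKI67 had 18.3 FPKM in SKOV3 YY-15 and 41.3 FPKM in SKOV3 control, a log2 ratio of -1.13, and 28.2 FPKM in ES2 YY-15 and 39.1 FPKM in ES2 control, a log2 ratio of -0.45. TOP2A stood at -0.67 in SKOV3 and -0.39 in ES2. The part of a change in the share of dividing cells in the members' ratios was not tested.

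Of 15 regulators of cell cycle transcription 10 were lower in SKOV3 YY-15 (median -0.30), against 47.3% of all genes. In ES2 the number lower was also 10 (median -0.01), against 54.3% of all genes. CDKN1A, which encodes the CDK inhibitor p21, had 16.5 FPKM in SKOV3 YY-15 and 4.51 FPKM in SKOV3 control, a log2 ratio of 1.67, and 2.67 FPKM in ES2 YY-15 and 2.64 FPKM in ES2 control, a log2 ratio of 0.01. It was the only one of the 15 at least 1.5-fold higher in SKOV3. E2F1, an activator of S phase genes, had 12.7 FPKM in SKOV3 YY-15 and 24.8 FPKM in SKOV3 control, a log2 ratio of -0.92, against 0.10 in ES2. RBL1, which encodes the pocket protein p107, stood at -0.55 in SKOV3 and -0.64 in ES2.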

How the data were processed

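RNA of 4 libraries was compared, 1 per group, grouped by title. Per the labels' protocols, poly(A) RNA was selected, libraries kept strand through dUTP, and PCR-amplified fragments were read as pairs. The protocols describe no molecular identifiers. The labels name a different sequencer in different fields, and several of their descriptive fields hold another field's content. The submitters' processing notes list StringTie 2.1.6, HISAT2 2.2.1, cutadapt 1.9, edgeR and DESeq2 without saying what each did, and the build mm10. That is a mouse build, but the gene identifiers are human, and all 43 members overlapped the same gene in GENCODE 29 on GRCh38, the build given here. The authors deposited FPKM and counts, per the file headers, in 1 table, in 8 columns of values, of which 0 were left unmatched. The deposited counts were treated as estimated counts, since 217 genes in SKOV3 and 233 in ES2 had a count of 1 or more beside an FPKM under 0.001 in the YY-15 library. FPKM does not correct for fragment GC content, and a difference in length or GC bias between libraries enters every ratio.

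Log2 ratios used a pseudocount of 1 and a filter at an FPKM of 1 in at least 1 library compared. The pseudocount understates the ratio of genes at low FPKM. With 0 residual degrees of freedom within a line, no test was run. Exact Clopper-Pearson 95% intervals came from the estimated counts and library totals and cover counting error only. The length and GC trend was fitted by loess with a span of 0.3 in R 4.3.3. Other steps used Python 3.11.15, numpy 2.4.6, pandas 2.3.3, scipy 1.17.1 and matplotlib 3.10.9, and the calculation was tested on simulated counts. Alternatives were pseudocounts of 0.1 and 5, no filter, a filter at 5, TPM, median centring, counts scaled to 1000000, the trend removed, and overlapping members left out. Named were members at least 1.5-fold from control in either line, the extremes of each role group, and up to 3 genes per further list by mean absolute log2 ratio over both lines. A gene this rule takes from the further lists is not reported here. Members named beyond this rule, named to complete a complex or a group, were chosen after their values were seen. The members and lists were chosen with earlier results of these data known. The number of cultures behind a library is not stated in the sources used.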

Additional observations from a re-analysis of the deposited data

Results flagged for a closer look

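In 8 of the 43 genes the log2 ratio (YY-15 over control) was below 0 in SKOV3 and above 0 in ES2 and the ratios lay at least 1.5-fold apart. The gap, as the SKOV3 log2 ratio minus the ES2 log2 ratio, was -1.20 for BIRC5, -1.10 for SPC24, -1.09 for CENPW and -1.01 for CENPM. It was -0.998 for CDCA8, -0.85 for CENPO, -0.71 for CENPH and -0.69 for MAD2L1. How many of all genes meet both conditions was not counted. With any signs, the SKOV3 ratio lay at least 1.5-fold below the ES2 ratio in 15 of the 43 genes. Among the 11028 genes compared in both lines it did so in 707. With 1 library per group these differences were not tested.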

How the results depend on the processing

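Across 9 alternatives, 84 of 90 summary values of the members kept their size within the limits set, and no direction was reversed. Changing the pseudocount or the filter, or leaving out members, cannot reverse the sign of a gene's log2 ratio. With a pseudocount of 5, the number at least 1.5-fold lower in SKOV3 was 10 in place of 20, the number at least 2-fold lower was 0 in place of 3, and the untreated lines differed 2-fold in 1 gene in place of 3 (higher in SKOV3) and 1 in place of 2 (lower in SKOV3). With a pseudocount of 0.1, 6 genes were at least 2-fold lower in SKOV3. With the length and GC trend removed, 2 in place of 4 genes were at least 1.5-fold lower in ES2. A larger pseudocount shrinks every ratio by its construction, most at low FPKM. Rescaling to TPM moved the median of all genes to 0.08 in SKOV3 and -0.08 in ES2, and SKA1 then lay above 0 in SKOV3, so that 42 genes lay below it. Of 191 single-gene values past the 1.5-fold size all 191 kept their sign. That count was nearly fixed in advance, since the remaining alternatives moved these values by less than that size. Of all 334 values of the members named at 1.5-fold, at any size, 332 kept their sign. The exceptions were those of BUB1 in ES2, at -0.02 in the main setting. It stood at 0.01 with median centring and at 0.06 with the trend removed. No paired analysis was possible because each group held 1 library. Depth was not the limit, since counting intervals were narrow, but the spread between cultures is unknown in these data.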
